A study of Mus musculus with 9 samples.

Results

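Kinesins are motor proteins that hydrolyse ATP and, in most cases, walk along microtubules. They were examined here as a gene family in renal vesicles, the first epithelial structures of the nephron. Members were all genes whose symbol in the platform annotation was Kif followed by a number and at most 1 letter from a to c. The array held 99 probe sets for 37 such genes, out of 18193 genes with a probe set of a single symbol. Where a gene had several probe sets, the one with the largest mean over the 9 arrays stood for it. The members were sorted into 11 mitotic kinesins, 15 transport kinesins, 5 kinesins of cilia and Hedgehog signalling, 2 atypical kinesins (Kif26a and Kif26b) and 4 others.

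Vesicles were cut out by laser capture from mouse kidneys at E12.5, either wild type (5 arrays) or Lim1 mutant (4 arrays). Lim1, now called Lhx1, encodes a homeodomain transcription factor with LIM domains that acts in the forming nephron. Each array was made from roughly 30 to 50 vesicles, and the series text calls the samples biologically independent. The mutant allele, the strain, the litters and the number of embryos per array are not stated in these sources, so the p-values measure only the spread between these arrays, and their small number limits the precision.

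Kinesins fall into families with distinct work. Mitotic kinesins build the spindle, move chromosomes and complete cytokinesis, and their transcripts peak in dividing cells. Transport kinesins carry vesicles, organelles and protein complexes towards microtubule plus ends, and the kinesin-2 motor of Kif3a and Kif3b also builds the primary cilium, whose loss from tubule epithelium leads to cystic kidneys. Kif26a and Kif26b are atypical members that are thought to lack motor activity. Kif26b is known from kidney development, where the metanephric mesenchyme needs it to condense around the ureteric bud. Kif26a is known from the enteric nervous system, where it binds Grb2 and dampens signalling by GDNF and its receptor Ret.

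The promoters of 4 members are shown because they contrast the atypical pair, of which 1 passed the test and 1 did not. Kif11 and Kif22 are added as examples of mitotic members. Each is the 250 bases before the annotated start in RefSeq (build GRCm38.p6), and 31 of the 37 genes had an entry. Capitals mark matches, on either strand, to TAATTA (a core bound by many homeodomain factors), CCAAT (the CCAAT box) and TTTGAA (a form of the cell cycle genes homology region, here the cell cycle motif). The first is Kif26a at chr12:112145958-112146207, plus strand, followed by Kif26b at chr1:178528875-178529124, plus strand, Kif11 at chr19:37376132-37376381, plus strand, and Kif22 at chr7:127042421-127042670, minus strand.
Kif26a: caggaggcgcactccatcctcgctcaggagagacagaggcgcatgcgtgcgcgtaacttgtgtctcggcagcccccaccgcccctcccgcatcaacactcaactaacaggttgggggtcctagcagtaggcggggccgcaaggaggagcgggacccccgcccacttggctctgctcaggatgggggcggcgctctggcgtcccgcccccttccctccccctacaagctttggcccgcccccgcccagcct
Kif26b: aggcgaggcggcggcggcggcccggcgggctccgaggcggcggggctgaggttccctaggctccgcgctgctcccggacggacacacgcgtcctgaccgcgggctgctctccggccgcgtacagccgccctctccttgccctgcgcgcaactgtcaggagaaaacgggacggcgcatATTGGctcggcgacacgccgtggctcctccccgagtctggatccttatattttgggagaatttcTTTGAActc
Kif11: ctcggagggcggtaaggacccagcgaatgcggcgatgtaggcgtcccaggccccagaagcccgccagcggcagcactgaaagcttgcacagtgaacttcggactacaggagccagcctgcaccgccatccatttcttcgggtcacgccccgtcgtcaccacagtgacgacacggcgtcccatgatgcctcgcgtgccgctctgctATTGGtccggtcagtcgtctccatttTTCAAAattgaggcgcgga
Kif22: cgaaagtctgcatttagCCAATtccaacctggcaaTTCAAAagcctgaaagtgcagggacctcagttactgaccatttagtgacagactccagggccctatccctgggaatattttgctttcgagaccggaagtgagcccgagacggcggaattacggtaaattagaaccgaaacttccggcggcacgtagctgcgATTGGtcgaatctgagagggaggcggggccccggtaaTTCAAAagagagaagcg

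The Kif26a window held none of the 3 motifs and had a GC content of 69.2% with 19 CpG dinucleotides. The Kif26b window had a GC content of 68.4% with 32 CpG dinucleotides. Its CCAAT box began 73 bases before the start and its cell cycle motif 9 bases before it. In Kif11 the box began at 45 bases and the cell cycle motif at 19 bases, and Kif22 had such a pair at 54 and 17 bases and another at 233 and 215 bases. The box was present in 6 and the cell cycle motif in 5 of the 10 mitotic kinesins with an entry, where 33.8% and 16% of all 32851 promoter windows of the same length held them. In this class only Kif11, Kif14 and Kif22 held both, and Kif18a and Kif20b held neither. Among the 11 transport kinesins with an entry, 3 held the box and 1 the cell cycle motif. The homeodomain core was found in 1 of the 31 members, Kif27, and in 4.84% of all windows. These matches are descriptions of the letters in the window, and a missing match says nothing about what binds there.

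The 2% trimmed mean of the deposited signals was 1500 on each array, so a like overall level was set by their scaling. Median signals were 143.8 to 194.7. Wild-type arrays 1 and 3 stood apart most from the rest, where the mean r with the remaining arrays was 0.860 and 0.850 and the other 7 reached 0.877 to 0.901. At the Lhx1 probe set that separated the groups, wild-type signals were 2327 to 17587 and mutant signals 6.88 to 10.5. At the other Lhx1 probe set the ranges were 1696 to 18555 and 4108 to 4951, so the genotype shows at 1 of its 2 probe sets. The part of the gene that was altered is not given in the labels.

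Of the 37 kinesin genes, 31 passed the filter on dim probe sets and were tested, and 1 passed the threshold of an adjusted p of 0.05. That gene was Kif26a, which was lower in the mutants. Over all 13226 genes tested with limma 0.0529% passed, and over all probe sets 0.0333%. An unadjusted p under 0.05 was reached by 3 of the 31 members, or 9.68%, namely Kif26a, Kif12 and Kif20b, against 7.73% of all tested genes. Of these 3, only Kif20b was higher in the mutants, where 4.8% of all tested genes were higher at that p. The signals of the groups did not overlap for 2 members, Kif26a and Kif21b, where 2.93% of all tested genes showed no overlap. Differences were above 0 for 17 members and below 0 for 14, or 45.2%, against 43.5% of all tested genes below 0, and the median over the 31 was 0.07 on the log2 scale, as it was over all tested genes (0.07). The 2 members lower at an unadjusted p under 0.05, Kif26a and Kif12, compare with 2.93% of all tested genes lower at that p. Kif26a was known from earlier results of these data when the family was chosen, so its part in these counts was fixed in advance. Among the other 30 members 0 passed the threshold, 6.67% had an unadjusted p under 0.05 and 1 showed no overlap.

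**Figure D1:**
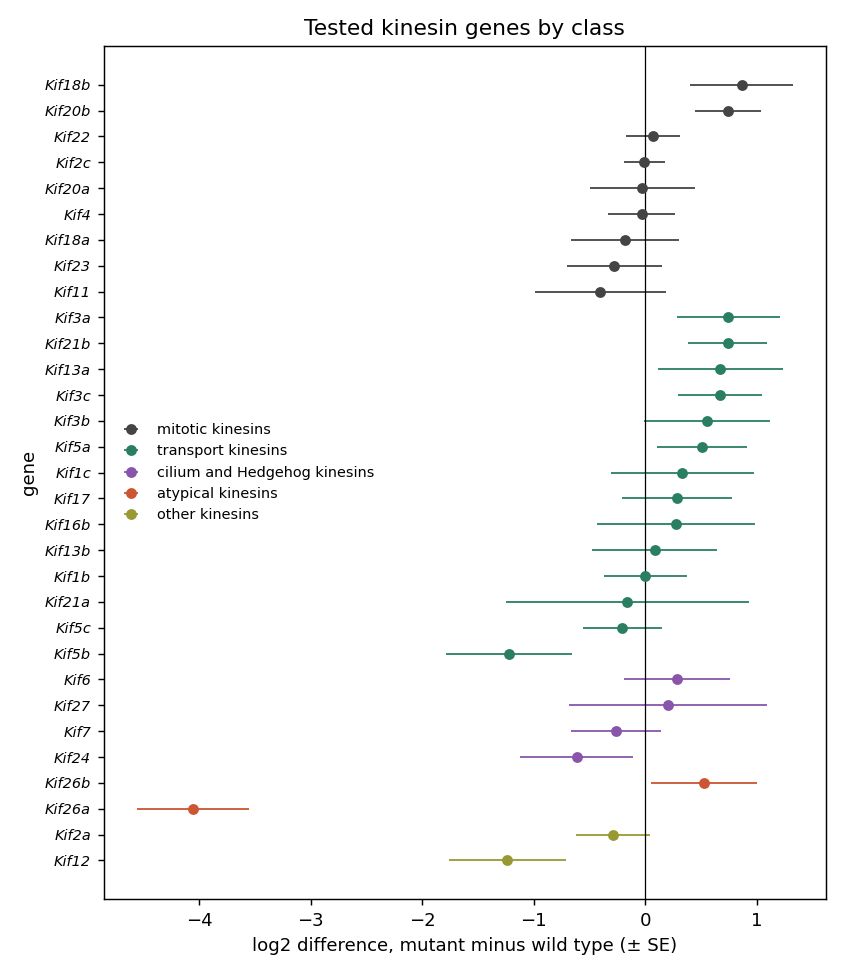
Log2 difference, mutant minus wild type, for the 31 tested kinesin genes (points) with its standard error (bars), coloured by class and sorted within each class. Kif26a stands at -4.06, and the other 30 genes lie between -1.24 and 0.86.

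Kif26a had wild-type signals of 2363, 1091, 3881, 1497 and 1318 on arrays 1 to 5. The mutant signals were 57.6, 59.6, 139.6 and 49.2 on arrays 1 to 4. All 5 wild-type arrays lay above all 4 mutant arrays, and the lowest wild-type signal was 7.81 times the highest mutant signal. The mean went from 2029.9 ± 1141 (SD, n = 5) in the wild type to 76.5 ± 42.3 (n = 4). Because 3 of the 4 mutant signals lay below the filter level of about 102 and their height above background is unknown, no fold is given. On the log2 scale of the fit the difference was -4.06 ± 0.50 (SE), with a 95% interval of -5.16 to -2.95 and an adjusted p of 0.0236 by limma over all probe sets. An exact permutation test over the 126 splits of the arrays gave a two-sided p of 0.00794, the smallest it can give. Ordered by p-value, Kif26a had rank 4 among the 13226 genes. Kif26a was known from earlier results of these data when the family was chosen. Its p-values and its rank here are therefore descriptions and no independent support.

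The Kif26a result rests on 1 probe set, the only one for this gene on the array. It passed the filter through its wild-type level. The call was lost in 8 of the 9 fits that left out 1 array, which gave adjusted p from 0.0432 to 0.154 and log2 differences from -4.32 to -3.78. The array whose absence kept the call was wild-type array 3, the one with the highest Kif26a signal. Captured tissue is a mixture, and for this and every other gene here fewer cells of a type and less RNA per cell cannot be told apart.

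**Figure D2:**
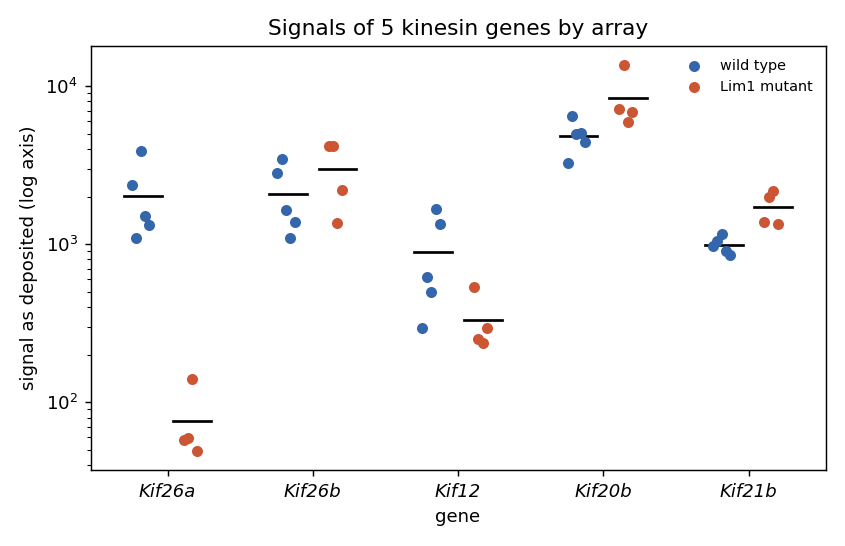
Signals as deposited (log axis) on each array for 5 kinesin genes. Points are arrays, 5 wild type and 4 Lim1 mutant, and horizontal bars are group means. For Kif26a the wild-type arrays lie at 1091 or above and the mutant arrays at 139.6 or below, while the groups overlap for Kif26b, Kif12 and Kif20b and are separate but close for Kif21b.

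Kif26a was set beside markers of other cells that a capture could include. Of the 14 tested endothelial markers, all 14 had differences below 0, with list levels of -0.57 to 1.30 on the wild-type arrays and -0.69 to 0.08 on the mutant arrays. The level of a list is the median deviation of its genes from their own means over the 9 arrays, on the log2 scale. Of 8 tested neural markers 7 were below 0, with levels of -0.64 to 1.55 (wild type) and -0.69 to 0.08 (mutant). Ureteric bud markers were below 0 for 9 of 12, with levels of -0.54 to 1.41 and -0.79 to 0.43. The summed signals ran from 8195 to 31985 (wild type) and 8254 to 13016 (mutant) for endothelium, from 1525 to 9894 and 1438 to 2009.7 for neural cells, and from 20129 to 84989 and 14472 to 33748 for the bud. No tested marker of these lists passed the threshold. An unadjusted p under 0.05 was reached by 25% of the bud markers (2 lower, 1 higher), against 7.73% of all tested genes. It was also reached by 1 neural marker, which was lower, and by 0 endothelial markers. Some bud markers fell far from wild type to mutant, with means of 431 and 20.1 for Tfap2b and 10037 and 1137 for Calb1. Gata3, at 684 and 7.02, lay below the filter and was not tested. The other 3 of the 12 tested bud markers had differences above 0. Among tested bud markers, mean signals were higher in the mutants for Spry1 (4132 and 9135), Cdh16 (1817 and 3270) and Wnt11 (912 and 1523). Wild-type array 2 held the highest summed bud signal, 84989, and the other wild-type arrays lay at 20129 to 29789.

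Stroma markers were below 0 for 8 of 12, with levels of -0.64 to 2.15 (wild type) and -1.49 to 0.97 (mutant) and summed signals of 20992 to 188513 and 17131 to 55818. Erythroid markers were below 0 for 6 of 8, with levels of -0.49 to 0.45 and -0.72 to 0.47 and summed signals of 50352 to 158488 and 33977 to 120262. Macrophage markers went the other way, with 7 of 9 above 0, levels of -0.88 to 1.05 and -0.21 to 0.84, and summed signals of 1498 to 22255 and 3743 to 5936. Cap mesenchyme markers were above 0 for 6 of 10, with a median of 0.11. Markers of the renal vesicle itself were below 0 for 8 of 13, with a median of -0.51. An unadjusted p under 0.05 was reached by 30.8% of the vesicle markers (3 lower, 1 higher), against 7.73% of all tested genes. Wild-type array 3, which had the highest Kif26a signal, also had the highest stroma, endothelial, neural and macrophage levels. Without it, 5 of 12 stroma, 11 of 14 endothelial, 6 of 8 neural, 4 of 8 erythroid and 9 of 12 ureteric bud markers were below 0. Over all tested genes 5808 of 13226 were below 0 in that fit. The median of the bud markers was then -0.81, against -0.70 with all arrays. Macrophage markers were above 0 for 8 of 9, and the Kif26a difference was -3.78. Wild-type array 2, which stayed in that fit, had the highest bud level, 1.41, and the lowest Kif26a of its group. The other wild-type arrays had bud levels of -0.54 to 0.11, within the mutant range of -0.79 to 0.43. Without wild-type arrays 1 and 3 the Kif26a difference was -3.56 ± 0.48 (adjusted p = 0.082 by limma). The part of these cells in the Kif26a result was not tested.

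Genes of the Ret and Grb2 pathway, in which Kif26a is known to act, did not pass as single genes. Of 14 genes listed, 11 were tested, 7 had differences above 0 and 4 below, with a median of 0.25. Ret, the GDNF receptor, had signals of 26.5, 4688, 7618, 485 and 423 on wild-type arrays 1 to 5 and 337, 75.7, 379 and 4.14 on mutant arrays 1 to 4. Ret was highest on wild-type arrays 2 and 3, of which array 3 also had the highest Kif26a and array 2 the lowest Kif26a of its group. Wild-type array 1, with the lowest Ret of its group, had the second highest Kif26a. The relation of Ret to Kif26a was not tested. The Ret difference was -2.43 ± 1.26 (adjusted p = 0.786 by limma). Gab1, a docking protein downstream of Grb2, had an unadjusted p under 0.05, with means of 3870 ± 2325 and 8135 ± 1487 and a log2 difference of 1.42 ± 0.58 (adjusted p = 0.73 by limma). Grb2 itself was at 2772 ± 958 and 2613 ± 1005.

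Kif26b, the other atypical kinesin, did not pass the threshold. Its signals were 2805, 3469, 1639, 1090.4 and 1376 on the wild-type arrays and 4174, 4168, 1358 and 2204 on the mutant arrays. The groups overlapped, with mutant array 3 below 4 of the 5 wild-type arrays. Its log2 difference was 0.53 ± 0.47, with a 95% interval of -0.51 to 1.56 (adjusted p = 0.882 by limma), so a fall of the size of that of Kif26a lies outside the interval. It too has 1 probe set.

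Mitotic kinesins as a class had differences centred near 0. Of 11 members 9 were tested, 3 with differences above 0 and 6 below, and none passed the threshold. The class median was -0.03, against 0.07 over all tested genes, and it ranged from -0.18 to 0.10 over the alternative settings, being above 0 in 5 of 20 (without wild-type array 1 or 4, mutant array 2 or 3, or wild-type arrays 1 and 3). Kif14 and Kif15 lay below the filter, Kif14 at 37.1 (wild type) and 33.4 (mutant), and Kif15 at 54.3 and 116.

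The spindle motors differed in the width of their intervals. Kif11, the bipolar motor that pushes spindle poles apart, had means of 4092 ± 2913 (wild type) and 3166 ± 2052 (mutant). Mutant array 2 read 796 and wild-type array 1 read 9041, and the other 7 arrays lay between 2080.1 and 5806. The Kif11 log2 difference was -0.40 ± 0.59, with a 95% interval of -1.69 to 0.88, and its other 2 tested probe sets read -0.55 and -1.03. Kif2c, a depolymerase that corrects kinetochore attachments, had a difference of -0.01 ± 0.18, and Kif22, a chromokinesin, one of 0.07 ± 0.24. For both, the 95% interval lay within 1 log2 unit of 0 (-0.41 to 0.39 for Kif2c and -0.47 to 0.60 for Kif22). Their representing probe sets are of the Affymetrix type whose probes can cross-hybridise. The other 3 tested probe sets of Kif2c gave 0.41, -0.45 and -0.90, and the other 2 of Kif22 gave -0.19 and -0.51.

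Kif4, a chromokinesin that organises the central spindle, was the steadiest of the tested members over arrays together with Kif2c, with pooled standard deviations within groups of 0.235 and 0.236 on the log2 scale. Its signals were 2009, 2350, 1900 and 2660 on wild-type arrays 1 to 4 and 2284 on array 5, and 2401, 2135, 1582 and 2716 on the mutant arrays. The Kif4 difference was -0.03 ± 0.30, with a 95% interval of -0.69 to 0.63. Kif18a, which shortens kinetochore microtubules, had a difference of -0.18 ± 0.49. The cytokinesis kinesins Kif20a and Kif23 had differences of -0.03 ± 0.47 and -0.28 ± 0.43. Wild-type array 3 had the lowest Kif20a signal, 1797, and mutant array 2 had the lowest Kif23 signal, 3112.

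Kif20b, which acts in cytokinesis, had wild-type signals of 3262, 6490, 4944, 5034 and 4444. The mutant signals were 7213, 13559, 5898 and 6858, so that 1 mutant array, array 3, lay below the highest wild-type array. The log2 difference was 0.74 ± 0.30 with an unadjusted p of 0.0294, and the adjusted p was 0.722 by limma. The other 3 Kif20b probe sets lay below the filter.

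Kif18b, a motor of astral microtubules, had wild-type signals of 732, 1421, 281, 1020 and 786 and mutant signals of 2014, 1572, 1399 and 1062. Mutant arrays 3 and 4 lay below the highest wild-type array, array 2. The Kif18b difference was 0.86 ± 0.46 (adjusted p = 0.792 by limma).

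Partners of the mitotic kinesins, such as kinases and regulators of the spindle, were listed separately. Of 24 tested, 19 had differences above 0, or 79.2%, against 56.5% of all tested genes. The other 5 were below 0, the median was 0.28, and none passed the threshold. An unadjusted p under 0.05 was reached by 4, or 16.7%, all higher, against 4.8% of all tested genes higher at that p. Without wild-type array 3 the count above 0 was 14 of 24, against 7418 of 13226 over all tested genes in that fit. Of the 24, 1 then had an unadjusted p under 0.05. Wild-type arrays 3 and 4 had the lowest levels of this list, -0.44 and -0.23, and the other 7 arrays lay between 0.03 and 0.21. The 3 partners with the lowest p were Foxm1, the transcription factor of mitotic genes, with a log2 difference of 0.96 ± 0.42, Ect2, the activator of the cytokinetic ring, with 1.05 ± 0.46, and Incenp, a scaffold of the chromosomal passenger complex, with 0.37 ± 0.17. Their adjusted p was 0.737, 0.737 and 0.748 by limma.

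Correlations among the mitotic kinesins across the arrays were mixed in sign. Over the 36 pairs of the 9 tested members, the median correlation across the 9 arrays was 0.05, and 19 pairs were above 0. Kif23 and Kif20a followed the median of the other members most closely, at r of 0.72 and 0.67, and Kif20b ran against it at -0.34. The same measure over 91 pairs of transport kinesins had a median of -0.02, and over 276 pairs of mitotic partners it was 0.23. All these correlations share the arrays and their scaling, and they are descriptions only.

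**Figure D3:**
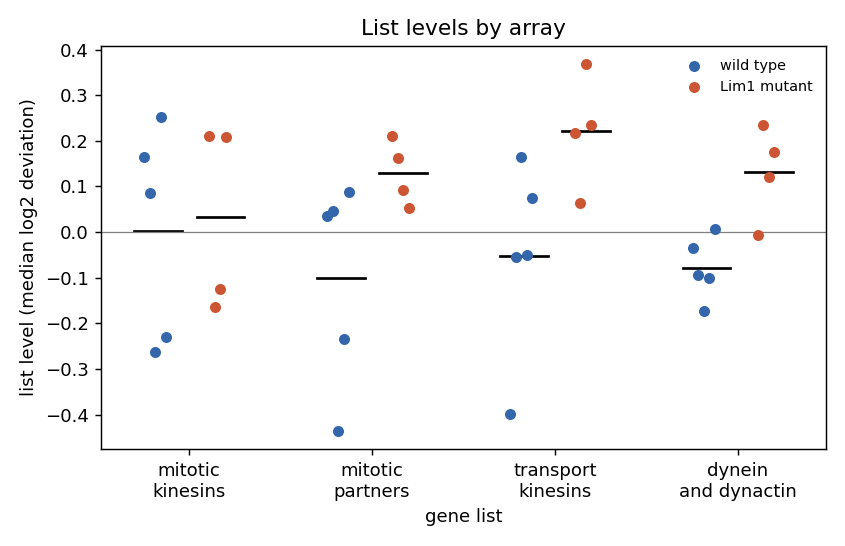
Level of 4 gene lists on each array, as the median log2 deviation of the genes of the list from their own means. Points are arrays and horizontal bars are group means. The mitotic kinesins overlap fully between the groups, and the transport kinesins span -0.40 to 0.16 on wild-type arrays and 0.06 to 0.37 on mutant arrays.

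Most transport kinesins had differences above 0, and no member passed the threshold. Of 15 members 14 were tested, 11 had differences above 0, or 78.6%, and 3 below, against 56.5% above 0 over all tested genes. The class median was 0.31, and it stayed above 0 in all 20 alternatives, from 0.21 to 0.49. Without wild-type arrays 1 and 3 the count above 0 was 8 of 14, with a median of 0.27, against 7347 of 13226 over all tested genes in that fit. None of the 14 had an unadjusted p under 0.05. Wild-type array 1 had the lowest level of the class, -0.40, and the other 4 wild-type arrays lay at -0.05 to 0.16, where the mutant arrays lay at 0.06 to 0.37.

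Kif21b, a kinesin-4 that limits microtubule growth in neurons and lymphocytes, was the transport member whose groups did not overlap. Its wild-type signals were 979.6, 1048, 1163, 906 and 855, and its mutant signals were 1388, 2001, 2157 and 1334. The lowest mutant array stood above the highest wild-type array by less than the range within either group. Means were 990.4 ± 121 and 1719.9 ± 420.03, and the log2 difference was 0.74 ± 0.36 (adjusted p = 0.766 by limma). The second Kif21b probe set was too dim to be tested.

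The kinesin-2 subunits Kif3a, Kif3b and Kif3c all had differences above 0 at the representing probe set. Kif3a, the motor subunit needed for cilia, had wild-type signals of 1694, 1375, 849, 1068 and 3349 and mutant signals of 2699, 1419, 2472 and 3833. The highest wild-type array, array 5, stood above 3 of the 4 mutants. Its log2 difference was 0.74 ± 0.46 (adjusted p = 0.817 by limma), and the other 3 tested probe sets gave 1.22, 0.38 and 0.75. One of them read 11.5 on wild-type array 1 and at least 1099 on the other 8 arrays.

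Kif3b, the partner of Kif3a, had a difference of 0.55 ± 0.56, with 0.26 and -0.29 at its other tested probe sets. Kif3c, an alternative partner best known from neurons, had means of 2162 ± 1118 and 3146 ± 321 and a difference of 0.67 ± 0.38, with 0.56 at its other tested probe set. Both Kif3c probe sets pointed the same way, and wild-type array 3 held the highest signal, 4007. Kif17, the homodimeric kinesin-2, had a difference of 0.28 ± 0.49.

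The carriers that partner the kinesin-2 motor in cilia, the intraflagellar transport genes, were listed separately. Of 21 tested, 12 had differences above 0 and 9 below, with a median of 0.10, and none had an unadjusted p under 0.05.

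Among conventional kinesins the 3 heavy chains differed in sign. Kif5b, the ubiquitous heavy chain, had wild-type signals of 8099, 6804, 6174, 8825 and 3405. Its mutant signals were 5358, 1171, 1083 and 7079.6. Mutant arrays 2 and 3 lay below every wild-type array, while mutant arrays 1 and 4 lay within the wild-type range. Means were 6661 ± 2098 and 3673 ± 3023, and the log2 difference was -1.22 ± 0.57, with a 95% interval of -2.46 to 0.02 (adjusted p = 0.748 by limma).

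All 5 tested Kif5b probe sets had differences below 0, at -1.22, -1.06, -0.68, -0.58 and -1.35. At the second brightest, mutant arrays 2 and 3 read 1186 and 1286 and mutant arrays 1 and 4 read 5838 and 4559. The third repeated this with 567 and 426 against 7566 and 4730, but there wild-type array 5 also read low, at 238. The fourth had another order, with mutant signals of 402, 735, 306 and 899 on arrays 1 to 4, so that array 2 stood above array 1. At the fifth, the dimmest, mutant arrays 2 and 3 read 76.6 and 7.17 and mutant arrays 1 and 4 read 291 and 293. Wild-type array 5 was the lowest wild-type array at 4 of the 5 probe sets. Mutant array 2 also had the lowest Kif11 and Kif23 signals, and the part of the quality of single arrays in the Kif5b values was not tested.

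**Figure D4:**
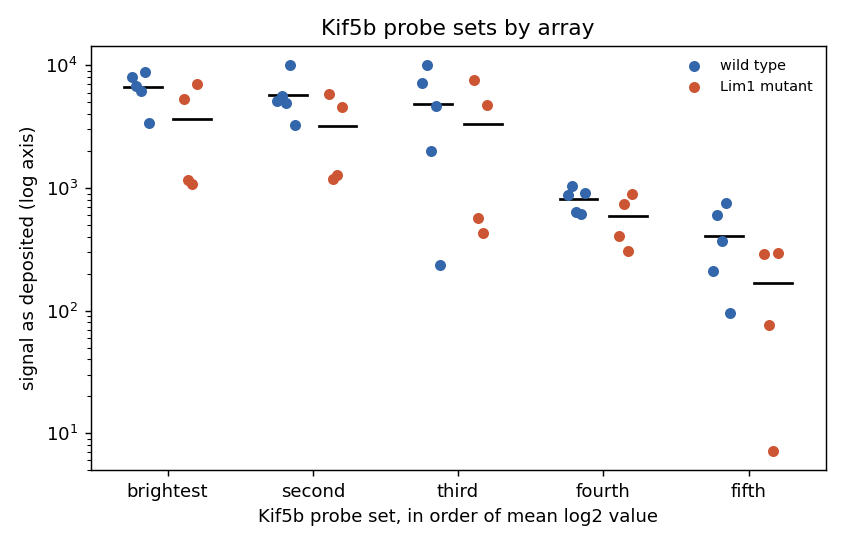
Signals as deposited (log axis) on each array for the 5 tested Kif5b probe sets, in order of mean log2 value. Points are arrays and horizontal bars are group means. At the 3 brightest probe sets, mutant arrays 2 and 3 (1286 or below) stand apart from mutant arrays 1 and 4 (4559 or above).

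Kif5c, a heavy chain best known from neurons, had means of 8095 ± 2777 and 6873 ± 2208 and a log2 difference of -0.21 ± 0.35. Kif5a, the most neuronal of the 3, was dim, at 109 ± 52.9 and 183 ± 56.8, with a difference of 0.51 ± 0.41. The light chains and cargo adaptors that link kinesins to cargo had 12 of 22 tested genes above 0 and a median of 0.01. None passed the threshold, and 3, or 13.6%, had an unadjusted p under 0.05, against 7.73% of all tested genes. They were Fez1, an adaptor of the Kif5 motors (-1.49 ± 0.45), the kinase Mark1 (-0.92 ± 0.37) and Kidins220, a Kif5 cargo (0.51 ± 0.20). Their adjusted p was 0.647, 0.722 and 0.722 by limma.

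The kinesin-3 carriers had differences at or above 0 at the representing probe set, and none passed the threshold. Kif13a, a carrier of endosomes, had a difference of 0.67 ± 0.56, and its 5 tested probe sets gave -0.19 to 0.75. Kif13b had 0.08 ± 0.56, Kif16b, an early endosome motor, 0.27 ± 0.71, and Kif1c 0.33 ± 0.64. Kif1b, a carrier of synaptic vesicle precursors and mitochondria, stood at 0.00 ± 0.37, while its 7 tested probe sets gave -0.25 to 1.76. Kif1a, the neuronal carrier, lay below the filter at 60.6 and 100.1.

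Some transport kinesins varied widely between arrays of a group. Kif21a had the largest pooled standard deviation of the family, 1.96 on the log2 scale, with wild-type signals from 66.8 to 3064 and mutant signals from 123 to 4344. Its difference was -0.16 ± 1.09, with a 95% interval of -2.55 to 2.22. Kif16b read 84.7 on wild-type array 1 and 751 or more on the other 8 arrays. The median pooled standard deviation was 0.76 over transport kinesins, 0.60 over mitotic kinesins and 0.64 over all tested genes.

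**Figure D5:**
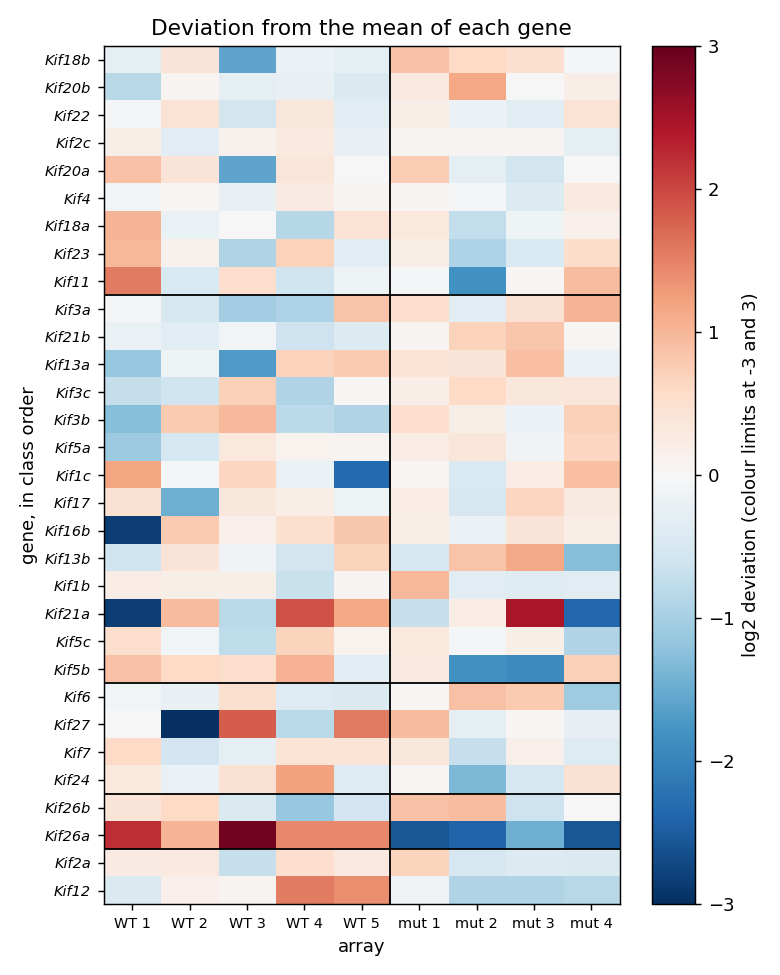
Log2 deviation of each tested kinesin gene (rows, in class order) from its mean over the 9 arrays (columns), with colour limits at -3 and 3. Lines separate the classes and the groups. The Kif26a row is above its mean on all 5 wild-type arrays and below it on all 4 mutant arrays, and rows such as Kif21a and Kif27 vary within both groups.

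Kinesins of cilia and Hedgehog signalling had 2 of 4 tested members above 0, and none reached an unadjusted p of 0.05. Kif7, the ciliary regulator of Gli factors, had wild-type signals of 2113, 988, 1170, 1951 and 1815 and mutant signals of 1871, 836, 1514 and 1128. The groups overlapped, and the log2 difference was -0.26 ± 0.40 with a 95% interval of -1.14 to 0.62. Kif24, which restrains cilium formation at the mother centriole, had wild-type signals of 892, 744, 1091, 1966 and 541 and mutant signals of 886, 278, 526 and 1161. Its difference was -0.62 ± 0.51, with -0.31 at its other tested probe set.

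Kif6, a kinesin of motile cilia, was dim, at 138, 137, 214, 119 and 92.3 on wild-type arrays and 189, 318, 292 and 56.5 on mutant arrays (0.29 ± 0.47). Kif27, a relative of Kif7, ranged from 11.2 to 1526 within the wild type and from 307 to 884 in the mutants, with a difference of 0.20 ± 0.89. Kif9 lay below the filter, at 76.7 and 112.

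Kif12, a kinesin expressed in kidney tubules and known as a candidate modifier of polycystic disease in mice, was the second lowest of the family. Its wild-type signals were 294, 624, 502, 1674 and 1339, and its mutant signals were 539, 253, 239 and 296. Wild-type arrays 4 and 5 were high, and wild-type arrays 1 and 3 lay within the mutant range. Means were 886 ± 590.05 and 332 ± 140.2, and the log2 difference was -1.24 ± 0.52 with an unadjusted p of 0.0366 (adjusted p = 0.735 by limma). The other Kif12 probe set gave -0.92 ± 0.45. Wild-type arrays 4 and 5 also had high levels of the renal vesicle marker list (which includes Lhx1), 0.71 and 0.45. Wild-type array 1, with the lowest Kif12 signal of its group, was at 0.45 as well. Wild-type arrays 2 and 3 lay at -0.41 and -0.50, below the mutant arrays, which lay at -0.32 to -0.15. The part of vesicle content in the Kif12 values was not tested.

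Kif2a, a microtubule depolymerase, had wild-type signals of 7939, 8373, 4112, 9248 and 8500 and mutant signals of 10441, 4635, 5017 and 4955. Wild-type array 3 lay below every mutant array, and mutant array 1 stood above every wild-type array. The log2 difference was -0.29 ± 0.33, with -0.06 and 0.08 at the other tested probe sets. Kif2b and Kif28 lay below the filter, Kif2b at 23.0 (wild type) and 13.03 (mutant) and Kif28 at 21.2 and 5.52.

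Kinesins that the naming rule leaves out did not pass either. Cenpe, the kinetochore kinesin, had means of 8495 ± 1443 and 11315 ± 3698 and a log2 difference of 0.40 ± 0.28. Kifc1, a minus-end motor of the spindle, had 0.45 ± 0.42, and Kifc3, a minus-end motor of epithelial cells, had -0.70 ± 0.51.

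The other microtubule motor, dynein with its activator dynactin, was compared as a list. Of 21 tested genes 17 had differences above 0, or 81%, against 56.5% of all tested genes. The other 4 were below 0, and the median was 0.30. Without wild-type arrays 1 and 3 the count above 0 was 16 of 21, against 7347 of 13226 over all tested genes in that fit. An unadjusted p under 0.05 was reached by 19% (3 higher, 1 lower), against 7.73% of all tested genes. The groups did not overlap for 2 of the 21, where 2.93% of all tested genes showed no overlap. Levels of the list were -0.17 to 0.01 on the wild-type arrays and -0.01 to 0.23 on the mutant arrays. Dync1h1, the motor subunit, had the lowest p of the list, with means of 25421 ± 5486 and 41764 ± 11397 and a log2 difference of 0.71 ± 0.19 (adjusted p = 0.55 by limma). Dynlrb1 and Dynll2, light chains, had differences of 1.13 ± 0.43 and 0.67 ± 0.30, and Dync1li2, a light intermediate chain, one of -0.75 ± 0.33, with adjusted p of 0.715, 0.745 and 0.748 by limma.

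Among 16 tested myosins, 7 had differences above 0 and 9 below, with a median of -0.30. Myo5b, an actin motor of recycling endosomes, had means of 3925 ± 913 and 874 ± 82.1 and a log2 difference of -2.11 ± 0.32 (adjusted p = 0.0576 by limma), just short of the threshold. Myo7a, an unconventional myosin, had 1.56 ± 0.64 (adjusted p = 0.729).

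Several probe sets per gene allowed a check within the family. For 15 members at least 2 probe sets were tested, and in 6 of them (Kif11, Kif12, Kif24, Kif3a, Kif3c and Kif5b) all gave the same sign. In the other 9 the signs differed. The interval of the difference lay within 1 log2 unit of 0 for 5 of the 31 tested members and within 2 log2 units for 26. For those 26 a change of more than 2 log2 units lay outside the interval. Where an interval reached beyond 1 log2 unit, as for most members, a change of that size was not excluded.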

How the data were processed

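The 9 arrays of biotin-labelled RNA, amplified in 2 rounds per the labels' protocols, gave 1 linear intensity per probe set, 45101 in all, as deposited by the authors, from Affymetrix GCOS per the submitters' processing notes. The algorithm, its version and the scaling target are not stated in those notes, and no detection calls were used. The 2% trimmed mean was 1500 on each array.

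Intensities were transformed as log2(value + 42.41), the 25th percentile of all values, and quantile normalised, and this scale understates changes of dim probe sets. Without 64 control probe sets, the 27022 probe sets at or above the 40th percentile of the mean entered a linear model in limma 3.58.1 under R 4.3.3 (eBayes with trend, group as the only term, two-sided), with p-values adjusted by Benjamini-Hochberg over all of them. Overlap was judged on deposited signals. The fit was tested on simulated data. Promoter windows shown were chosen after the values were seen.

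Named genes were Kif26a, Kif26b, Kif3a, Kif7 and Kif12, members with an unadjusted p under 0.05 or no overlap, the 2 largest differences per class, and up to 3 partner genes per list and direction with an unadjusted p under 0.05. Other members are given for completeness, and Ret, Grb2, Cenpe, Kifc1 and Kifc3 were chosen after their values were seen. Kif28 was placed with the other kinesins after the annotation was read. Members and lists were chosen with earlier results of these data known. Alternatives covered normalisation, filter, pseudocount, variance prior, weights, replicate block, probe set choice and left-out arrays.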

Additional observations from a re-analysis of the deposited data

Results flagged for a closer look

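For each of 12 named kinesins, Dixon's test asked in both groups whether the highest or lowest array lay apart from the others. Of the 24 sets of values 3 had such an array, and about 1.2 would be found by chance, since the test picks out 1 set in 20. Kif26a read 139.6 on mutant array 3, against 49.2 to 59.6 on the other mutant arrays. Kif2a read 4112 on wild-type array 3, against 7939 to 9248 on the other wild-type arrays, and 10441 on mutant array 1, against 4635 to 5017 on the other mutants.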

How the results depend on the processing

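The Kif26a difference kept its direction in all 20 alternatives, from -4.52 with the pseudocount at the 10th percentile to -3.05 with it at the median, and passed in 10 of them. Leaving out 1 array at a time gave -4.32 to -3.78, with 0 to 1 kinesin genes past the threshold, and fewer arrays were fitted there. Without wild-type arrays 1 and 3 the difference was -3.56 (adjusted p = 0.0820) and 0 kinesin genes passed. Replicate numbers are shared by the groups, but same-numbered arrays did not deviate together (correlations of -0.11 to 0.05, with 1 of 4 mutants closest to its own number). With the replicate number as a block the Kif26a difference was -4.15 (adjusted p = 0.320) and 0 kinesin genes passed, among 0 probe sets of 27022 in limma (1756 at an unadjusted p under 0.05). The median of the transport kinesins ranged from 0.25 to 0.49 with 1 array left out, highest without mutant array 2. The other 11 named kinesins kept their direction and stayed above the threshold of adjusted p in every alternative run, except that Kif6 was not tested with the filter at the 60th percentile. The median of the mitotic kinesins was above 0 in 5 of 20. The counts without wild-type array 3, and the list counts without arrays 1 and 3, were chosen after seeing the data. No detection calls were used, so how far dim signals stand above background is unknown.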
